A study of Homo sapiens with 3 samples.

Results

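Keratins are the intermediate filament proteins of epithelial cells, and the 9 keratin genes described here are KRT7, KRT8, KRT10, KRT15, KRT18, KRT19, KRT80, KRT81 and KRT86. They were chosen by name with values of these libraries already known, so their levels and changes are given as a description, without p-values, and where one is said to be called or not, that too is a description and supports nothing. Of the 21726 genes in the deposited table, 8 carry one of the 9 names, and all 8 reached the count minimum for testing. That minimum was 20 counts per line on average, with the libraries of a line summed, and 9556 genes reached it. A gene was called where its edgeR p, adjusted over those genes, was under 0.05. No row carries the symbol KRT86. The gene ENSG00000170442, which is KRT86 in the GENCODE v29 annotation, is listed in the deposited table under the symbol AC021066.1. It had 17 counts over all libraries and was not tested. In GENCODE v29 that symbol belongs to another gene, an antisense one sharing 48 exon bases with KRT86. The row was taken as KRT86 by its identifier. No threshold for the choice of names is given. KRT15, with 160 counts over all libraries, and KRT80, with 186, are among the names, and KRT75, with 233, is not.

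The libraries came from 3 lines of PC3-Luc cells, with 3 libraries per line. PC3 is a human prostate cancer line, taken from a bone metastasis, that grows without androgen, and all 3 lines carry a luciferase gene brought in with pMSCV-luc. The control line carries a control hairpin, and the lines sh718 and sh720 each carry a short hairpin against CTHRC1, a secreted glycoprotein linked to cell migration. Cells were cultured for 24 h before RNA was taken, and reads were single and 75 bp long. Each hairpin is represented by 1 line, and the labels do not say whether a line is a clone or a pool. The labels do not say whether a line's 3 libraries are separate cultures. The p-values and intervals below therefore measure only how far these libraries differ among themselves, and that spread may be technical. CTHRC1 counted 88 to 126 in the control libraries, 1 to 2 in sh718 and 10 to 19 in sh720.

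Library totals ran from 883663 to 1108960 counts, and mitochondrial genome transcripts held 12% to 16.4% of them. The epithelial markers fixed for the label check were present in part: EPCAM and CLDN4 were among those that reached the count minimum, while CDH1 had 6, 1 and 8 counts in control, sh718 and sh720. For the PC3 line, the prostate secretory genes KLK3 and KLK2 were not listed. Markers of prostate basal cells were near 0: TP63 and KRT14 were not listed and KRT5 had 1 count in all. Fibroblast markers summed to at most 6.79 CPM in any library. The leukocyte and endothelial markers summed to 21.4 to 25.9 CPM in control, 48.8 to 53.4 in sh718 and 15.4 to 32.2 in sh720. Nearly all of that was PECAM1, with 69, 138 and 59 counts, while CD3E, LYZ, VWF and CDH5 were not listed. Of the neuroendocrine markers only ENO2, which cancer lines also express, passed the minimum, with sums of 38.9 to 48.5, 68.9 to 98.7 and 52.4 to 71.7 CPM. CPM here is counts scaled to 1e6 tested-gene counts of the library after TMM scaling, a correction for differences in composition between libraries.

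Keratin filaments are built from pairs, each of a type I (acidic) and a type II (basic) chain, and cells of simple epithelia typically make KRT8 with KRT18, often with KRT7 and KRT19. KRT10 is best known from the upper layers of the epidermis, KRT15 from basal cells of stratified epithelia, and KRT81 and KRT86 from the cortex of the hair shaft. The type II genes lie together on chromosome 12 and the type I genes on chromosome 17, except that type I KRT18 sits beside its partner KRT8 on chromosome 12. In luminal prostate cells KRT8 and KRT18 are the usual pair. Filaments are tied to desmosomes and hemidesmosomes by linker proteins such as desmoplakin and plectin. In bulk RNA, fewer cells making a keratin and less of its RNA per cell cannot be told apart.

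In the control line the hair keratin KRT81 had the highest level per transcript length of the keratins described, at 948 CPM per kb of its principal transcript. KRT19 stood at 563 and KRT18 at 406 CPM per kb. KRT7 followed at 178 CPM per kb, and KRT8 and KRT10 were at 94.95 and 90.5. The libraries of KRT8 and KRT10 overlapped on this scale, at 79.2 to 107 and 88.0 to 95.03 CPM per kb. KRT15 and KRT80 lay far lower, at 2.82 and 2.29 CPM per kb, and also overlapped. In sh718, KRT81 reached 4219 CPM per kb, and KRT7, at 29.6, stood below KRT10 at 117 and KRT8 at 92.4. In sh720, KRT7 stood at 300.1 CPM per kb, above KRT8 at 130. The places of KRT7, KRT8 and KRT10 in the control order depend on the length used: over all annotated exons they were at 76.2, 29.3 and 89.6 CPM per kb.

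**Figure D1:**
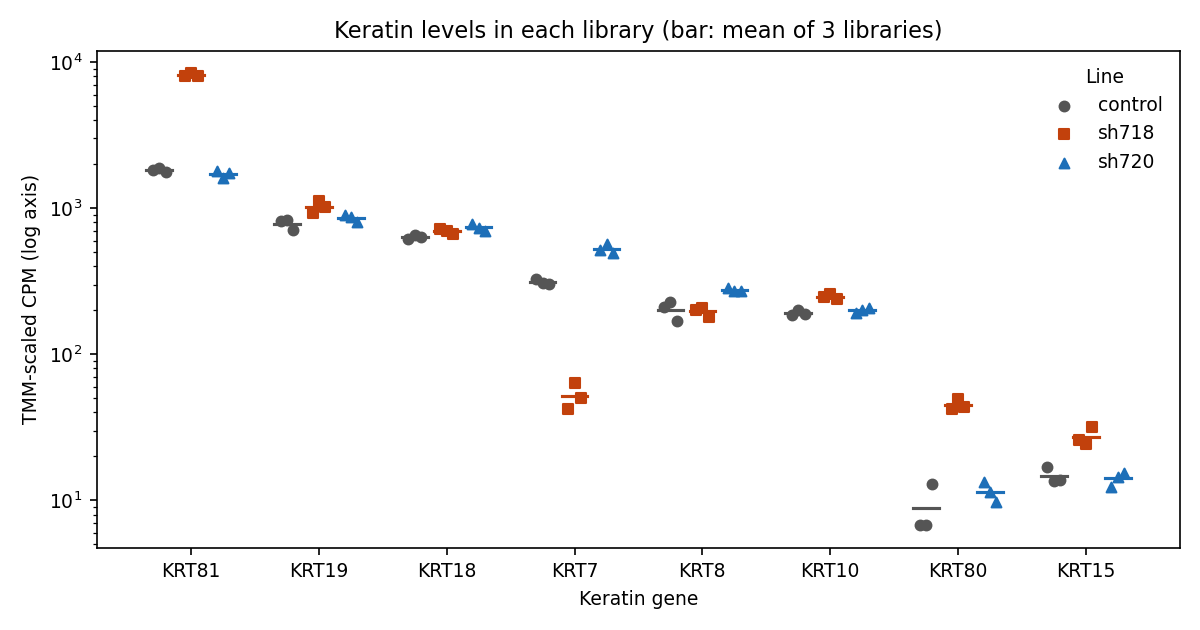
TMM-scaled CPM (log axis) of the 8 tested keratins in each of the 9 libraries, by line, with a bar at the mean of 3 libraries. KRT81, KRT80, KRT15, KRT19 and KRT10 stand above the other lines in sh718, and KRT8 stands above the other lines in sh720. KRT7 stands lowest in sh718 and highest in sh720.

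KRT81 (ENSG00000205426, GRCh38 chromosome 12, 52285913 to 52291534, minus strand) encodes a type II hair keratin. Its level was 1813, 1899 and 1772 CPM in the control libraries, 7984, 8377 and 8051 in sh718, and 1792, 1604 and 1739 in sh720. All sh718 libraries stood above all others, and control and sh720 overlapped. The sh718 mean was 4.45 times the control mean (log2 difference 2.15, SE 0.06, 95% interval 2.04 to 2.27). In sh720 the difference from control was -0.09 (SE 0.06, interval -0.21 to 0.02). By summed counts, uncorrected for length, KRT81 ranked 54 of all genes in control and 54 in sh720. In sh718 it ranked 6 with 22686 counts, and first once mitochondrial genome transcripts were set aside.

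KRT86 (GRCh38 chromosome 12, 52249300 to 52309163, plus strand) encodes the hair keratin closest to KRT81. It had 0 counts in every control library, 4, 6 and 3 in sh718, and 3, 0 and 1 in sh720. Taking 3 counts over the control line as the floor, sh718 stood 4.44-fold and sh720 1.28-fold above it. The counts of sh718 and sh720 were taken as exact, so counting error in them is not covered. The coding sequences of KRT81 and KRT86 were 94.2% identical over 1457 aligned bases in GENCODE v29, while the pairs of KRT7, KRT8, KRT80 and KRT81 were 67.8% to 76.9% identical. Of the 1254 aligned coding windows of 75 bases, the read length, 612 (48.8%) were the same in both genes. A read from such a window can be placed on either gene, so the split between them is uncertain. Of all 75-base windows of the KRT86 transcripts, 30.7% occurred in another gene. Both genes hold the first stretch below, at coding bases 61 to 135, letter for letter. The other pair is the window with the most differences, 18 of 75 bases, at coding bases 1251 to 1325, with the differing bases in capitals. They are shown because the first cannot and the second can tell the genes apart in a single read.
KRT81 and KRT86, identical window: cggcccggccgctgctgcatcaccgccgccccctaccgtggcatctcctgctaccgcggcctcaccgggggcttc
KRT81, most different window: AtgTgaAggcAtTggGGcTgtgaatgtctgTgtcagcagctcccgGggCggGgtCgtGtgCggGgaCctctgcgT
KRT86, most different window: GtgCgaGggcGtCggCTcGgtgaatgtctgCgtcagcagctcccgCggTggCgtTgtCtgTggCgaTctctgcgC

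Over whole transcripts, 35.9% of the 75-base windows of KRT81 occurred in another gene, most of them in KRT86 (612 windows) and fewer in the pseudogene KRT87P (67), KRT85 (31) and KRT83 (21). KRT83, another hair keratin with a coding sequence 93.3% identical to that of KRT81, had 8 counts in control, 25 in sh718 and 9 in sh720. By library, KRT83 had 0, 4 and 4 counts in control, 7, 4 and 14 in sh718, and 2, 4 and 3 in sh720. In CPM the lines overlapped, with sh718 library 2 at 4.03 and control library 2 at 4.51. The ratio of its summed counts in sh718 to control, scaled by library size, was 3.21, with an exact 95% counting interval of 1.40 to 8.22. Its ratio in sh720 was 1.08 (0.371 to 3.23). The counting intervals in this paragraph pool the libraries of a line and do not cover the spread between libraries. The hair shaft proteins listed as markers were otherwise near 0, with KRT31, KRT33A, KRT33B, KRT35, KRT85 and KRTAP1-1 not listed. KRT34, a type I hair keratin, had 6, 9 and 15 counts, with ratios to control of 1.54 (0.489 to 5.25) in sh718 and 2.41 (0.882 to 7.57) in sh720.

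KRT80 (ENSG00000167767, chromosome 12, 52168996 to 52192000, minus strand), a type II epithelial keratin, was a low-level gene that, like KRT81, stood highest in sh718. Its level was 6.76, 6.77 and 13.0 CPM in control, 42.4, 49.4 and 43.5 in sh718, and 13.4, 11.4 and 9.70 in sh720. The sh718 libraries stood above all others, and control and sh720 overlapped. The sh718 mean was 5.11 times the control mean (log2 2.30, SE 0.28, interval 1.74 to 2.85). These levels rest on 26 counts in control, 126 in sh718 and 34 in sh720. In sh720 the difference was 0.33 with a wide interval, -0.42 to 1.08. None of the 75-base windows of KRT80 occurred in another gene.

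KRT7 (ENSG00000135480, chromosome 12, 52232520 to 52252186, plus strand), a type II keratin of simple and glandular epithelia, was lower than control in sh718 and higher than control in sh720. Its level was 327, 309 and 301 CPM in control, 42.4, 63.5 and 49.8 in sh718, and 514, 572 and 494 in sh720. No 2 lines overlapped. The control mean was 6.01 times the sh718 mean (log2 -2.57, SE 0.12, interval -2.81 to -2.33), and the sh720 mean was 1.69 times the control mean (log2 0.75, SE 0.08, interval 0.59 to 0.92). KRT7-AS, an antisense RNA gene sharing 282 exon bases with KRT7, had 6, 3 and 7 counts in control, 0 in each sh718 library, and 1, 6 and 2 in sh720. Against a floor of 3 counts over sh718, KRT7-AS in control stood 5.20-fold higher, with the control counts taken as exact. No source used here gives the strand setting of the counting, so reads from the shared bases of the 2 genes cannot be told apart.

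KRT8 and KRT18, the type II and type I chains of the simple epithelial pair, were higher in sh720. KRT8 (ENSG00000170421, chromosome 12, 52897187 to 52949954, minus strand) stood at 211, 227 and 168 CPM in control, 202, 207 and 181 in sh718, and 286, 270 and 271 in sh720. The sh720 libraries stood above all others (log2 0.46 against control, SE 0.10, interval 0.26 to 0.65), and control and sh718 overlapped (log2 -0.03, interval -0.24 to 0.18). The call in sh720 was lost without control library 3, the lowest control library, with a difference of 0.33. KRT18 (ENSG00000111057, chromosome 12, 52948871 to 52952901, plus strand) stood at 615, 653 and 633 CPM in control, 724, 701 and 671 in sh718, and 783, 737 and 699 in sh720. Every hairpin library stood above every control library, by 0.14 in sh718 (SE 0.07, not called) and by 0.22 in sh720 (SE 0.07, interval 0.09 to 0.36, called). The KRT18 call in sh720 was lost with DESeq2, with upper quartile scaling, without the filter on low counts, and without any 1 of control library 1, control library 3, sh720 library 1 and sh720 library 2, with differences of 0.18 to 0.22. KRT8 and KRT18 overlap on opposite strands by 525 exon bases, and 9.49% and 13.3% of their 75-base windows occurred in another gene, including each other and processed pseudogenes.

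The tested type I keratins on chromosome 17, KRT19, KRT10 and KRT15, were all higher in sh718. KRT19 (ENSG00000171345, 41523617 to 41528308, minus strand), the smallest keratin and a simple epithelial one, stood at 816, 824 and 709 CPM in control, 927, 1117 and 1014 in sh718, and 892, 871 and 805 in sh720. Its sh718 libraries stood above the others (log2 0.39, SE 0.07, interval 0.25 to 0.52), while sh720 overlapped control (0.13, interval -0.01 to 0.27). KRT10 (ENSG00000186395, 40818117 to 40822595, minus strand) stood at 187, 202 and 188 CPM in control, 245, 259 and 240 in sh718, and 191, 202 and 208 in sh720. Its sh718 libraries again stood above the others (log2 0.37, SE 0.10, interval 0.18 to 0.56), and sh720 overlapped control (0.06, interval -0.14 to 0.26). KRT10 shares 56 exon bases with TMEM99 on the opposite strand. KRT15 (ENSG00000171346, 41513743 to 41522529, minus strand) stood at 16.9, 13.5 and 13.9 CPM in control, 25.9, 24.2 and 31.8 in sh718, and 12.3, 14.6 and 15.5 in sh720. The sh718 libraries did not overlap the others (log2 0.89, SE 0.27, interval 0.34 to 1.43), and sh720 overlapped control (-0.05, interval -0.68 to 0.57). KRT15 rests on 42, 76 and 42 counts, and its call in sh718 was lost with DESeq2, without control library 3 and without sh718 library 3.

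**Figure D2:**
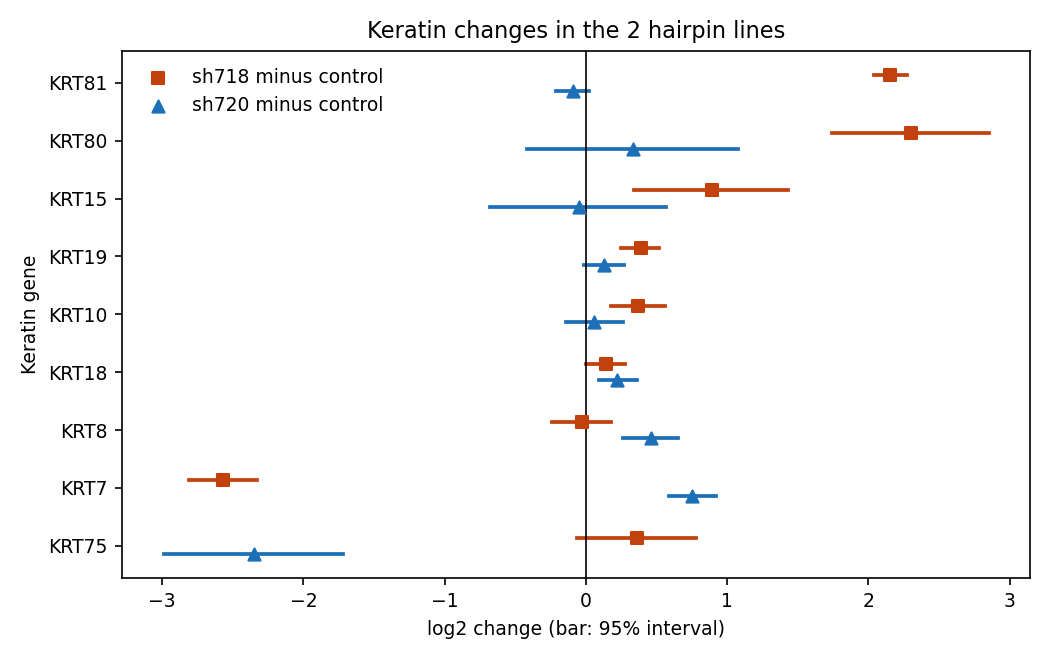
Log2 change of 9 keratins from control in sh718 (squares) and sh720 (triangles), with 95% intervals from edgeR. KRT81 and KRT80 lie above 2 in sh718 and near 0 in sh720, KRT7 lies at -2.57 in sh718 and 0.75 in sh720, and KRT75, which is outside the named set, lies at -2.35 in sh720.

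Counted together, 5 of the 8 tested keratins were called higher in sh718 than in control (KRT10, KRT15, KRT19, KRT80 and KRT81), against 9.56% of all tested genes. KRT7 alone was called lower, against 10.8% of all tested genes, and 20.4% were called in either direction. In 7 of the 8, the sh718 and control libraries did not overlap, against 33.5% of all tested genes. The keratins' median difference was 0.38, and that of all tested genes 0.00. In sh720 against control, 3 of 8 were called higher (KRT7, KRT8 and KRT18) and 0 lower, where 3.43% of all tested genes were called higher, 3.42% lower and 6.85% either way. The libraries did not overlap in 3 of the 8, against 23.5%, and the median difference was 0.175. Between sh718 and sh720, 5 of 8 were called higher in sh718 (12.3% of all tested genes), 2 lower (13%) and 7 either way (25.3%). The libraries did not overlap in 7 of 8, against 37%, and the median difference was 0.28. Because these genes were named with the values known, nothing is read from their counts against those shares. The comparisons with control share the control libraries.

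KRT75 (ENSG00000170454, chromosome 12, 52424070 to 52434525, minus strand), a type II keratin of the hair follicle companion layer, was the 1 other keratin that reached the count minimum. Its level was 24.8, 38.3 and 36.1 CPM in control, 44.8, 44.3 and 39.2 in sh718, and 6.16, 4.16 and 8.73 in sh720. The sh720 libraries lay below all others, and the sh718 libraries just above control. KRT75 fell by 2.35 on the log2 scale in sh720 (SE 0.32, edgeR adjusted p 4.37e-08), and the sh718 difference of 0.36 did not pass the test (SE 0.21, edgeR adjusted p 0.232). It was singled out here after its values were seen. Of its 75-base windows, 6.76% occur in an antisense gene, AC055736.1. Of the 15 other protein-coding keratins in the table, 12 had fewer than 20 counts over all libraries, 49 in all.

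The 8 tested keratins together held 0.370% to 0.406% of the counts of a control library, 0.979% to 1.05% in sh718 and 0.433% to 0.443% in sh720. KRT81 alone made up 45.4% to 46.7% of the keratin counts in control, 77.6% to 78.3% in sh718 and 37.5% to 41.0% in sh720. KRT86 was not tested and is in none of these shares. Without KRT81 the mean shares came to 0.211%, 0.220% and 0.266%, so sh720 then stood highest. The type I genes (KRT10, KRT15, KRT18 and KRT19) held 0.150% to 0.166% in control, 0.185% to 0.204% in sh718 and 0.180% to 0.186% in sh720. The type II genes held 0.220% to 0.240%, 0.794% to 0.846% and 0.249% to 0.261%. Leaving out KRT81, the type II share was lowest in sh718, at a mean of 0.0283% against 0.0514% in control and 0.0824% in sh720.

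**Figure D3:**
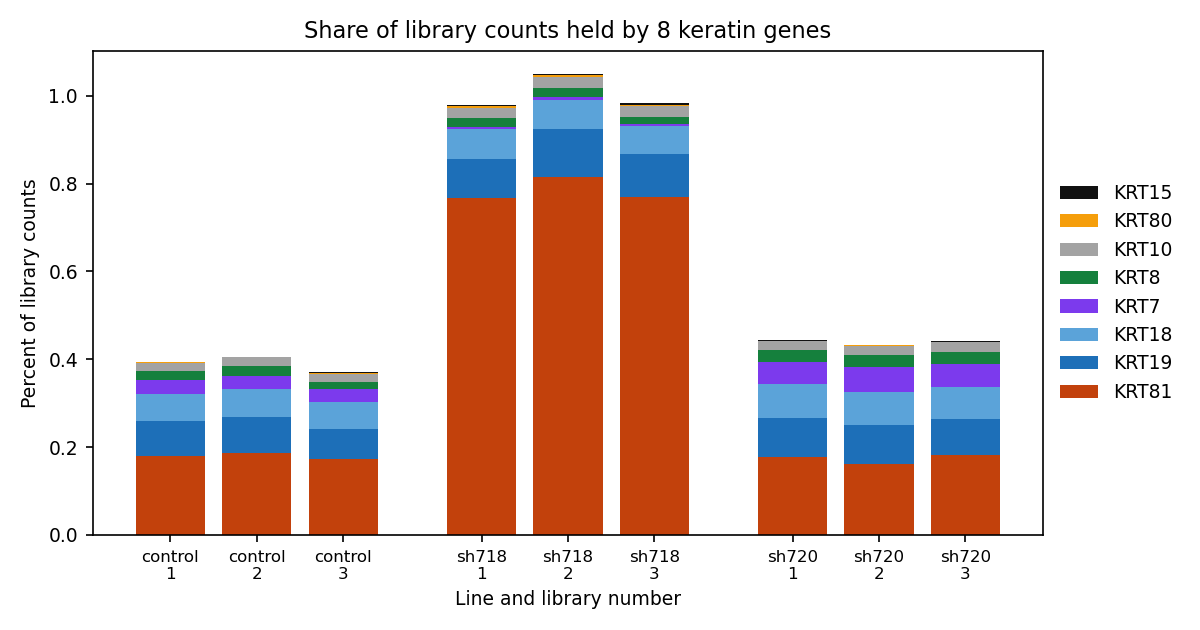
Percent of each library's counts held by the 8 tested keratins, stacked by gene, for the 9 libraries. The sh718 bars reach 0.979% to 1.05%, most of it KRT81, and the others 0.370% to 0.443%.

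Ratios of partner chains within a library do not depend on library scaling. The log2 ratio of KRT8 to KRT18 counts was -1.54, -1.52 and -1.91 in control, -1.84, -1.76 and -1.89 in sh718, and -1.45, -1.45 and -1.37 in sh720. The sh720 ratios were higher than all others, while those of sh718 lay within the control range. The log2 ratio of KRT7 to KRT19 was -1.32, -1.41 and -1.24 in control, -4.43, -4.13 and -4.33 in sh718, and -0.80, -0.61 and -0.70 in sh720, with no overlap between lines. With 3 libraries against 3, an exact permutation test cannot go below p = 0.1. The ratio of KRT81 to KRT86 is not read, since KRT86 had 0 counts in control and the sign of the difference changed with the number of counts added.

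On chromosome 12, genes that lie close together changed in different directions. Distances run from the lowest coordinate of KRT80, the first tested keratin of the region, to the lowest coordinate of each gene. KRT7 lies at 63.5 kb, KRT81 at 116.9 kb, KRT75 at 255.1 kb, KRT8 at 728.2 kb and KRT18 at 779.9 kb. In sh718, KRT7 was lower between KRT80 and KRT81, which were both higher. KRT86 spans KRT81 on the opposite strand with 0 shared exon bases. Of the nearest tested genes on either side of the keratins, EIF4B, a translation initiation factor at 837.2 kb, was lower in sh718 (log2 -0.47, edgeR adjusted p 0.00173). The activin receptor gene ACVR1B, at -217.3 kb, did not pass the test (0.07, edgeR adjusted p 0.907).

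**Figure D4:**
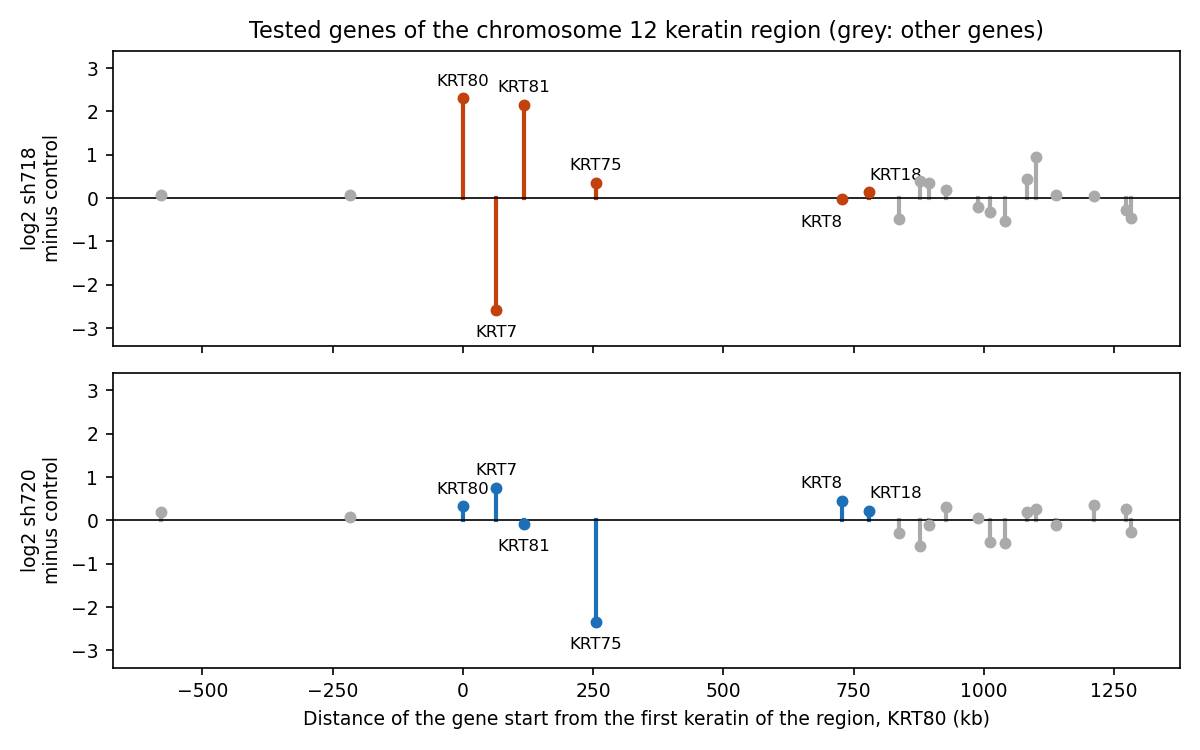
Log2 change of each tested gene of the chromosome 12 keratin region and its flanks from control, in sh718 (top) and sh720 (bottom), against the distance of the gene's lowest coordinate from that of KRT80 in kb. Keratins are coloured and labelled, and other genes are grey. KRT80 and KRT81 are at 2.30 and 2.15 in sh718 with KRT7 at -2.57 between them, and KRT75 is at -2.35 in sh720.

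For the 3 keratins with the widest spread of line means (KRT7 3.31, KRT81 2.25 and KRT80 2.16 on the log2 scale), the 3 genes of most similar pattern were taken from 6590 genes by Pearson r of log2 CPM over the 9 libraries. The libraries fall into 3 lines, so these values mostly reflect the order of 3 line means and are given without a p. Closest to KRT81 were LMNA, which encodes the nuclear lamins A and C (r 0.993), the BMP inhibitor NOG (0.992) and FAM43A (0.989). Closest to KRT7 were the ribonucleotide reductase subunit RRM2B (0.990), the transcriptional repressor BHLHE41 (0.990) and HES4 (0.986). BHLHE41 had means of 125 CPM in control, 20.4 in sh718 and 172 in sh720. Closest to KRT80 were the scaffold gene AKAP12 (0.977), SERINC3 (0.976) and the ribosomal protein gene RPL35A (0.969). Pearson r does not measure the size of a change, and some of these genes changed far less than the keratin. In control, sh718 and sh720, RPL35A had means of 1474, 1804 and 1522 CPM, and SERINC3 of 209, 293 and 233. RRM2B had means of 52.3, 29.7 and 64.3 CPM.

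Of 21 genes for linkers of keratin filaments and desmosome proteins, 17 were tested. In sh718, 4 were called higher and 1 lower, and in sh720, 3 were higher and 0 lower, with median differences of 0.09 and 0.36. Of all tested genes, 9.56% were higher and 10.8% lower in sh718, and 3.43% and 3.42% in sh720. This list and those below were chosen with earlier results of these data known. Nothing is therefore read from their counts of called genes against those shares. Trichoplein (TCHP), a keratin-binding protein, rose in both lines, from 40.0 ± 11.8 CPM (SD, n = 3) in control to 69.4 ± 2.17 in sh718 (log2 0.76, edgeR adjusted p 0.000746) and 73.2 ± 11.5 in sh720 (0.84, edgeR adjusted p 0.000292). Plectin (PLEC), which links intermediate filaments to hemidesmosomes and actin, rose in sh718 from 520 ± 30.6 to 724 ± 66.5 CPM (log2 0.48, edgeR adjusted p 1.02e-06). PERP, a desmosome membrane protein, also rose there (0.52, edgeR adjusted p 7.97e-05). Desmoplakin (DSP), which anchors keratins to the desmosome, fell in sh718 from 96.6 ± 9.95 to 62.1 ± 6.15 CPM (log2 -0.63, edgeR adjusted p 0.000647). In sh720, the desmosomal cadherin DSC3 rose by 1.04 (edgeR adjusted p 0.000219), and the linker periplakin (PPL) was higher by 1.46. PPL had 20, 14 and 58 counts in control, sh718 and sh720. Its average reached the count minimum only through its sh720 counts, so its p is not given.

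Of 9 hemidesmosome genes, 8 were tested, and 6 were called higher and 1 lower in sh718, with a median of 0.44, where 9.56% and 10.8% of all tested genes were higher and lower. Among the 6 are PLEC and DST, which are also counted among the linkers. In sh720, 2 were higher and 1 lower, with a median of 0.07, where 3.43% and 3.42% of all tested genes were. As for the linkers, nothing is read from these counts against those shares. Integrin beta 4 (ITGB4), whose tail binds plectin, rose from 140 ± 8.27 CPM to 399 ± 21.0 in sh718 (log2 1.51, edgeR adjusted p 3.41e-21) and to 179 ± 8.98 in sh720 (0.35, edgeR adjusted p 0.025). The laminin chain LAMA3 rose in sh718 (0.80, edgeR adjusted p 0.000656). CD151, a tetraspanin partner of laminin-binding integrins, fell in sh718 (-0.30, edgeR adjusted p 0.0277) and rose in sh720 (0.32, edgeR adjusted p 0.0238). LAMB3 fell in sh720 (-0.53, edgeR adjusted p 0.00107).

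Of 15 other intermediate filament genes, 8 were tested, with 3 higher and 1 lower in sh718 (median 0.23), and 1 higher and 0 lower in sh720 (median -0.05). The shares of all tested genes called higher and lower were 9.56% and 10.8% in sh718, and 3.43% and 3.42% in sh720. In sh718, LMNA rose from 463 ± 15.6 to 906 ± 23.3 CPM (log2 0.97, edgeR adjusted p 1.54e-18), and nestin (NES) rose by 0.61 (edgeR adjusted p 4.94e-05). The neurofilament gene NEFL fell there (-0.44, edgeR adjusted p 7.91e-05), and the lens filament gene BFSP1 was higher by 1.24. BFSP1 had 18, 42 and 19 counts in control, sh718 and sh720. It reached the count minimum only through its sh718 counts, so its p is not given. Vimentin (VIM), the mesenchymal filament protein, rose in sh720 from 2371 ± 55.2 to 2931 ± 136 CPM (log2 0.31, edgeR adjusted p 9.76e-05), and its sh718 difference of 0.07 did not pass the test (edgeR adjusted p 0.401).

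Of 38 transcription factors known at keratin or epithelial genes, 21 were tested, with 4 higher and 3 lower in sh718 (median 0.04), and 2 higher and 0 lower in sh720 (median 0.16), beside 9.56% and 10.8% of all tested genes in sh718, and 3.43% and 3.42% in sh720. In sh718, the AP-1 factor JUN rose from 98.0 ± 5.56 to 215 ± 21.3 CPM (log2 1.13, edgeR adjusted p 5.68e-12), and the epithelial ETS factor ELF3 rose by 0.84 (edgeR adjusted p 0.000457). The retinoid X receptor RXRA rose in sh718 (1.38, edgeR adjusted p 0.000214) and in sh720 (1.49, edgeR adjusted p 0.000101). CEBPB, a bZIP factor, moved like KRT7 in sign: it fell in sh718 from 186 ± 4.96 to 104 ± 12.3 CPM (log2 -0.82, edgeR adjusted p 3.13e-08) and rose in sh720 to 303 ± 4.91 (0.71, edgeR adjusted p 4.94e-08). TFAP2C (-0.65, edgeR adjusted p 2.33e-05) and KLF4 (-0.83, edgeR adjusted p 0.0108) also fell in sh718. HOXC13, a regulator of hair keratins, was below the count minimum with 20, 16 and 17 counts in control, sh718 and sh720.

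Genes of the cornified envelope and squamous differentiation were mostly absent or near 0: of 24, 10 were listed and 3 tested. SFN, an epithelial 14-3-3 protein, rose in sh718 (0.41, edgeR adjusted p 0.00559), and S100A9 rose in sh720 (1.07, edgeR adjusted p 0.000985). Among the epithelial markers, EPCAM fell in sh718 from 37.8 ± 7.35 to 14.4 ± 1.41 CPM (log2 -1.39, edgeR adjusted p 2.41e-05). The tight junction gene CLDN4 rose in sh718 (0.28, edgeR adjusted p 0.0255) and fell in sh720 (-0.40, edgeR adjusted p 0.00446). Of the prostate luminal markers other than KRT8 and KRT18, DPP4 fell in sh718 (-1.29, edgeR adjusted p 0.000644), and HOXB13, with 760, 660 and 669 counts, did not pass the test in either line (edgeR adjusted p 0.205 and 0.115). The part of these genes in the keratin values was not tested.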

How the data were processed

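The values are raw counts, 1 row per Ensembl gene and 1 column per library, in the table the authors deposited for 9 libraries. They are not normalized, per the file headers. GEO lists 1 sample per line, and the 3 numbered columns of each line were taken as its libraries. Trim Galore and the build GRCh38 are named in the submitters' processing notes. The aligner, counter, strand setting and annotation release: not given in the sources used here. The keratins, the gene lists and the rules for naming genes were chosen with earlier results of these data known.

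All 9 libraries entered 1 model in edgeR 4.0.16 (R 4.3.3; TMM scaling, glmQLFit and glmQLFTest), with the line as factor, for the 9556 genes averaging at least 20 counts per line. P-values were adjusted by the Benjamini-Hochberg method over those genes in each comparison, with 0.05 as the threshold for a call. The fit was tested on simulated data. The common biological coefficient of variation was 5.89%. SE is the log2 change divided by the square root of F. DESeq2 1.42.0, other scalings, filters and left-out libraries were alternatives. Positions, transcripts and the shared 75-base windows came from GENCODE v29. Of each list, at most 3 genes called per direction in a comparison with control were named, those whose interval lay farthest from no change. Library pairs of a line differed by more than sampling noise, with chi-square per degree of freedom of 1.28 to 2.25. Some marker genes of the label check are not reported here.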

Additional observations from a re-analysis of the deposited data

Results flagged for a closer look

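In the direct comparison of the 2 hairpin lines, 8 keratins differed. They were named or singled out with their values known, so the differences are a description. Lower in sh718 than in sh720 were KRT7 (log2 -3.33) and KRT8 (-0.49). Higher in sh718 were KRT81 (2.25), KRT80 (1.97), KRT15 (0.94), KRT10 (0.31) and KRT19 (0.25). KRT75, outside the named set, was also higher in sh718 than in sh720 (2.71, SE 0.30). KRT7 stood below control in sh718 and above it in sh720. The calls of KRT10, KRT15 and KRT19 were lost under some of the alternatives given below.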

How the results depend on the processing

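With DESeq2 the counts of all genes called came to 1007 in sh718 against control (447 higher, 560 lower), 298 in sh720 against control (132 and 166) and 1293 in sh718 against sh720 (632 and 661), and the keratins called higher in sh718 than in sh720 to 3. Leaving out 1 library at a time gave 4 to 5 keratins called higher in sh718 and 1 called lower, 1 to 3 higher in sh720 (1 without control library 3) and 3 to 5 higher in sh718 than in sh720 (3 without sh718 library 2). All genes called then ranged from 1483 to 1913, from 463 to 710 (higher 217 to 355, the lowest without control library 3), and from 1921 to 2398. KRT81, KRT80 and KRT7 kept their direction and call in sh718 under every alternative tried. Calls were lost for KRT15 in sh718, and for KRT8 and KRT18 in sh720, as given above, for KRT10 in sh718 against sh720 with DESeq2 and without sh718 library 2 or sh720 library 1, for KRT15 there with DESeq2 and without sh718 library 3, and for KRT19 there without sh718 library 2. Uncalled differences changed sign over left-out libraries for KRT8 in sh718 (-0.16 to 0.0623; 0.00, 0.0623 and 0.03 without control library 1, control library 2 and sh718 library 3) and for KRT15 in sh720 (-0.139 to 0.0403; 0.0403 and 0.03 without control library 1 and sh720 library 1). The difference in the KRT81 to KRT86 log2 ratio turned to 1.23 for sh718 against control with 5 counts added, and to -0.25 for sh718 against sh720 without sh720 library 1; over left-out libraries the latter ran from -0.25 to 1.06. With mitochondrial transcripts out of the total, the shares were 0.461%, 1.17% and 0.508% for all keratins, 0.188%, 0.224% and 0.212% for type I and 0.273%, 0.948% and 0.296% for type II in control, sh718 and sh720. Without KRT81, and with mitochondrial transcripts kept in the total, they were 0.211%, 0.220% and 0.266%, and 0.0514%, 0.0283% and 0.0824% for type II. The cause of these shifts was not tested. Same-numbered libraries did not visibly deviate together (correlations of -0.01 to 0.02). This gives no sign of pairing by number, but a small shared effect could be hidden by counting noise. With the replicate number as a block, 5, 3 and 5 keratins were called higher and 1977, 680 and 2425 genes in all. Depth limits KRT15, KRT80 and the keratins below the count minimum.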

Other observations

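The table lists 19 keratin pseudogenes with 138 counts in all, 4 of them named for KRT8 (59 counts), 14 for KRT18 (78 counts) and 0 for KRT19. KRT18P54 had 11 counts in control, 4 in sh718 and 0 in sh720. Its control level was 3.81-fold above a floor of 3 counts over sh720. KRT18P26 had 0 counts in control and 8 in sh720, 2.57-fold above a floor of 3 counts over control. The 11 and 8 counts were taken as exact, so counting error in them is not covered. Both pseudogenes were picked after their values were seen.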
